A study of Mus musculus with 15 samples.

Results

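Transcripts of the kinetochore and of the spindle assembly checkpoint were examined in primary male mouse embryonic fibroblasts (MEFs) that lacked Hdac1, had reduced Hdac2, or both. The set was given by name: 43 gene symbols, which are 41 genes because 2 of them carry an older and a newer symbol. A gene was represented by its brightest probe set with exactly 1 annotated symbol, which was available for 40 of the 18193 genes on the array, and all 40 passed the filter on dim probe sets; Hjurp, the chaperone of the centromeric histone, was not analysed here. By role, 15 members belong to the inner kinetochore and centromere, 13 to the outer kinetochore, 9 to the checkpoint, and 3 (Sgo1, Sgo2a and Cenpj) to none of these.

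The kinetochore is the protein assembly that joins a chromosome to spindle microtubules in mitosis. Its inner layer, built on nucleosomes with the histone variant CENP-A, carries the outer layer, whose Ndc80 complex binds microtubules, and checkpoint proteins gather on kinetochores without attached microtubules and delay anaphase. In dividing cells most of the encoding transcripts rise before mitosis, and fibroblasts that leave the cell cycle keep few of them.

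Of the 5 groups of 3 arrays, 4 were made from one kind of MEF, HDAC1 fl/fl, in which Hdac1 is flanked by loxP sites. These cells all carried a retrovirus for Cre-ERT2, a recombinase that Tamoxifen switches on, and a second virus for a small hairpin micro-RNA that was either directed against Hdac2 or scrambled. KO/Kd cells had the micro-RNA against Hdac2 and Tamoxifen at 200 nM, KO cells had the scrambled micro-RNA and Tamoxifen, Kd cells had the micro-RNA against Hdac2 and ethanol (EtOH), and control cells had the scrambled micro-RNA and EtOH. The fifth group, HDAC1 +/+ MEFs with Tamoxifen, had no floxed allele; which viruses these cells carried, and how long any cells were treated, are not given in the labels. The comparison of these groups asks what loss of one deacetylase does with and without the other. The labels do not say whether replicate arrays were hybridised with RNA of separate cultures, and the p-values therefore describe a spread that may be only technical.

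Values are linear array intensities, and all fold changes are on the log2(intensity + 16) scale with p-values from limma, adjusted by Benjamini-Hochberg over 13373 tested genes and called at 0.05. Hdac1 read 106 to 203 on KO/Kd arrays and 144 to 183 on KO arrays, against 3498 to 3673 on control arrays. Hdac2 read 1013 to 1031 on KO/Kd arrays and 908 to 1028 on Kd arrays, against 6536 to 7354 on control arrays. Array medians lay between 24.1 and 30.7, and the KO/Kd arrays were the brightest group. Summed over 10 fibroblast markers, intensity was 226144 to 242785 in KO/Kd cells and 185517 to 192235 in control cells. By the limma test, 6 of the 10 were higher and 2 lower in KO/Kd cells, where 46.1% of all genes rose and 19.3% fell. Within groups, KO/Kd replicate 2 gave the highest value of its group for 37 of 40 members, KO replicate 3 for 36 and Kd replicate 1 for 31. Each also had the highest array median of its group, at 30.7, 28.6 and 25.7. In the other groups this did not hold. Control replicate 1 was highest for 22 members at a median of 24.9, below the 25.1 of replicate 2. Likewise, +/+ Tamoxifen replicate 2 was highest for 22 at a median of 26.7, below the 27.3 of replicate 1. Shares of all genes are not given here, and a link to array brightness was not tested.

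With both perturbations nearly the whole set was lower. In KO/Kd cells 38 of the 40 members fell and 1 rose relative to control cells, with a median log2 fold change of -1.90 over the 40 members against 0.16 over all genes tested; 19.3% of all genes fell and 46.1% rose in this comparison. By role, 14 of 15 inner kinetochore members, 13 of 13 outer kinetochore members and 9 of 9 checkpoint members fell, with medians of -1.85, -2.04 and -2.01. A log2 fold change of -1 or lower was reached by 30 members, or 75% of the set, and by 4.11% of all genes. One of -2 or lower was reached by 19 members, while 1.09% of all genes reached it. In these bulk samples, fewer cells in mitosis and less RNA per cell cannot be told apart. The median over the members, relative to the control mean, was -2.17, -1.50 and -2.08 on KO/Kd replicates 1, 2 and 3. Leaving out replicate 2 gave a median of -2.11 with 38 members lower and 1 higher.

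**Figure D1:**
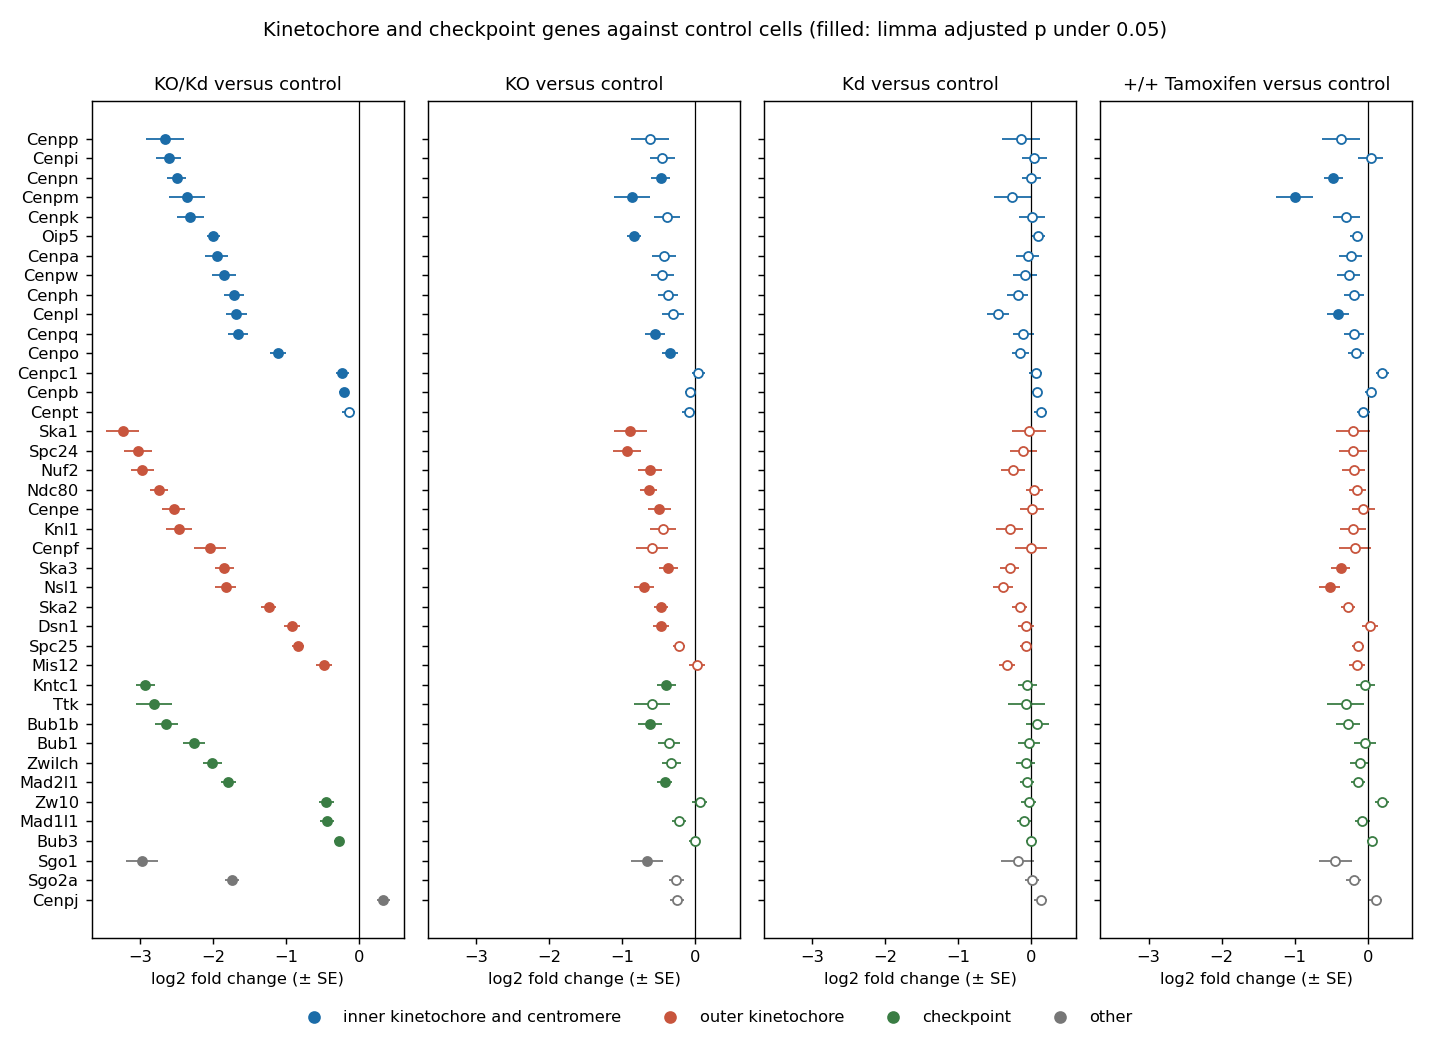
Log2 fold change of each of the 40 members (rows, grouped by role) against control cells, with 1 panel for each of the other groups; points are limma estimates, bars are standard errors, and filled points passed an adjusted p of 0.05. Points of KO/Kd cells spread from -3.24 for Ska1 to 0.33 for Cenpj, whereas those of Kd cells lie near 0.

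In the outer kinetochore, the largest falls were those of Ska1, Spc24, Nuf2 and Ndc80. Ska1, a subunit of the Ska complex that holds on to shortening microtubules, read 84.4, 184 and 61 in KO/Kd cells, 491, 550 and 688 in KO cells, 1129, 1021 and 1016 in Kd cells, 944, 974 and 881 in +/+ Tamoxifen cells, and 1040, 1068 and 1113 in control cells. The KO/Kd arrays were all below the KO arrays, and these were all below the other 3 groups. Its log2 fold change in KO/Kd cells was -3.24 ± 0.23 (SE, adjusted p = 2.63e-09), which left 10.2% of the control level and ranked 7 from the lowest among 13373 genes. Spc24, which links the Ndc80 complex to the inner layer, read 108, 214 and 90.7 in KO/Kd cells, 549, 577 and 683 in KO cells, 1086, 1061 and 1079 in Kd cells, 1022, 1005 and 1012 in +/+ Tamoxifen cells, and 1221, 1194 and 1083 in control cells. Here too the KO/Kd arrays were lowest and the KO arrays next, with a log2 fold change of -3.03 ± 0.19 in KO/Kd cells.

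Nuf2, the partner of Ndc80 in the microtubule-binding head, read 80.8, 152 and 75.3 in KO/Kd cells, 547, 548 and 611 in KO cells, 822, 720 and 673 in Kd cells, 813, 761 and 736 in +/+ Tamoxifen cells, and 916, 874 and 847 in control cells. Ndc80 itself, which contacts the microtubule lattice, read 201, 257 and 185 in KO/Kd cells, 801, 950 and 1157 in KO cells, 1572, 1582 and 1489 in Kd cells, 1448, 1385 and 1276 in +/+ Tamoxifen cells, and 1651, 1436 and 1444 in control cells. For both genes the KO/Kd values were the lowest, the KO values came next, and neither set overlapped another group. The log2 fold changes in KO/Kd cells were -2.97 ± 0.16 and -2.74 ± 0.12. Cenpe, a kinesin that carries chromosomes toward the spindle equator, read 418, 696 and 380 in KO/Kd cells, 2000, 1827 and 2360 in KO cells, 2976, 2833 and 2897 in Kd cells, 2862, 2892 and 2553 in +/+ Tamoxifen cells, and 3023, 2831 and 2793 in control cells. It fell by 2.54 ± 0.16 on the log2 scale and kept 17.3% of the control level.

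The members of the Ndc80 complex did not fall alike. Spc25, the partner of Spc24, averaged 1858 ± 199 in KO/Kd cells and 3331 ± 143 in control cells (SD, n = 3 each), a log2 fold change of -0.84 that left 55.8% of the control level, whereas Spc24, Nuf2 and Ndc80 kept 11.8%, 11.7% and 14.2%. The Mis12 complex, which joins the inner to the outer layer, was also uneven. Nsl1 read 34.1, 58.6 and 53.1 in KO/Kd cells, 103, 134 and 137 in KO cells, 161, 165 and 143 in Kd cells, 145, 148 and 132 in +/+ Tamoxifen cells, and 254, 198 and 183 in control cells. All 4 perturbed or Tamoxifen-treated groups lay below the control arrays for Nsl1, and its log2 fold change in KO/Kd cells was -1.83. Dsn1 and Mis12, of the same complex, fell by 0.92 and 0.48 on the log2 scale. Knl1, the scaffold on which Bub1 and Bub3 assemble, averaged 50.2 ± 26.3 in KO/Kd cells and 334 ± 39.2 in control cells (SD, n = 3 each), a log2 fold change of -2.47. Cenpf, a large coiled-coil protein of the outer corona, fell by 2.04, and Ska3 and Ska2, the other two Ska subunits, fell by 1.85 and 1.24.

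Among checkpoint genes, Kntc1, Ttk, Bub1b and Bub1 fell most. Kntc1, which encodes Rod, a recruiter of Mad1 and dynein, read 117, 205 and 148 in KO/Kd cells, 854, 958 and 1075 in KO cells, 1291, 1127 and 1232 in Kd cells, 1258, 1263 and 1202 in +/+ Tamoxifen cells, and 1212, 1281 and 1310 in control cells. The KO/Kd arrays stood far below all others, with a log2 fold change of -2.93 ± 0.13 (adjusted p = 1.34e-11). Zwilch, which binds Rod in one complex with Zw10, read 426, 671 and 434 in KO/Kd cells, 1537, 1553 and 1831 in KO cells, 2003, 2012 and 1834 in Kd cells, 1931, 1968 and 1829 in +/+ Tamoxifen cells, and 2110, 2129 and 1944 in control cells, a log2 fold change of -2.01 in KO/Kd cells. Zw10, the third subunit, which also works in membrane traffic between mitoses, averaged 788 ± 101 in KO/Kd cells and 1079 ± 32 in control cells (SD, n = 3 each) and kept 73.0% of the control level.

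Ttk, the kinase Mps1 that starts checkpoint signalling, read 134, 334 and 110 in KO/Kd cells, 779, 778 and 1037 in KO cells, 1301, 1217 and 1205 in Kd cells, 1057, 1066 and 1030 in +/+ Tamoxifen cells, and 1259, 1308 and 1339 in control cells. Bub1b, which encodes BubR1, part of the inhibitor of the anaphase-promoting complex, read 278, 451 and 223 in KO/Kd cells, 1179, 1239 and 1429 in KO cells, 2099, 2107 and 2073 in Kd cells, 1601, 1702 and 1596 in +/+ Tamoxifen cells, and 2150, 1903 and 1881 in control cells. Log2 fold changes in KO/Kd cells were -2.81 ± 0.25 for Ttk and -2.64 ± 0.16 for Bub1b, and no KO/Kd array overlapped another group. Bub1, a kinase that marks centromeric histone H2A, read 540, 928 and 544 in KO/Kd cells, 2249, 2421 and 2757 in KO cells, 3242, 3154 and 2950 in Kd cells, 3179, 3378 and 2786 in +/+ Tamoxifen cells, and 3191, 3151 and 3173 in control cells, a log2 fold change of -2.26. Mad2l1, the checkpoint protein that changes its fold on binding Mad1, averaged 2005 ± 379 in KO/Kd cells and 6890 ± 278 in control cells (SD, n = 3 each) and kept 29.1%. Its partner Mad1l1 was dim, kept 70.5% and fell by 0.44 on the log2 scale.

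Bub3, the adaptor that brings Bub1 and BubR1 to Knl1, changed least among the checkpoint members. Its brightest probe set averaged 7232 ± 306 in KO/Kd cells and 8693 ± 169 in control cells (SD, n = 3 each), a log2 fold change of -0.27 (adjusted p = 0.00278). A dimmer probe set of Bub3, at 567 to 807 over all arrays, had a log2 fold change of 0.14 (adjusted p = 0.195 over all probe sets), so the direction for this gene depends on the probe set. Of 27 further probe sets that passed the filter, from 19 of the members, 16 fell and 0 rose in KO/Kd cells (limma, adjusted over all probe sets, of which 17.1% fell and 43.5% rose). Among those that reached 581 or more on some array, second probe sets gave -2.77 for Cenpn, -2.69 for Cenpp, -2.70 for Cenpe, -2.80 for Bub1b and -3.22 for Sgo1. These were close to the values of the first ones, whereas Ska2 gave -0.36 with its second probe set and -1.24 with its first. Dimmer probe sets gave -1.18 for Bub1, -0.62 for Ttk and -0.45 for Cenpk, far from the -2.26, -2.81 and -2.31 of the first ones. For Knl1 and Cenpf dimmer probe sets gave -2.05 and -1.68, nearer to the first ones at -2.47 and -2.04.

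**Figure D2:**
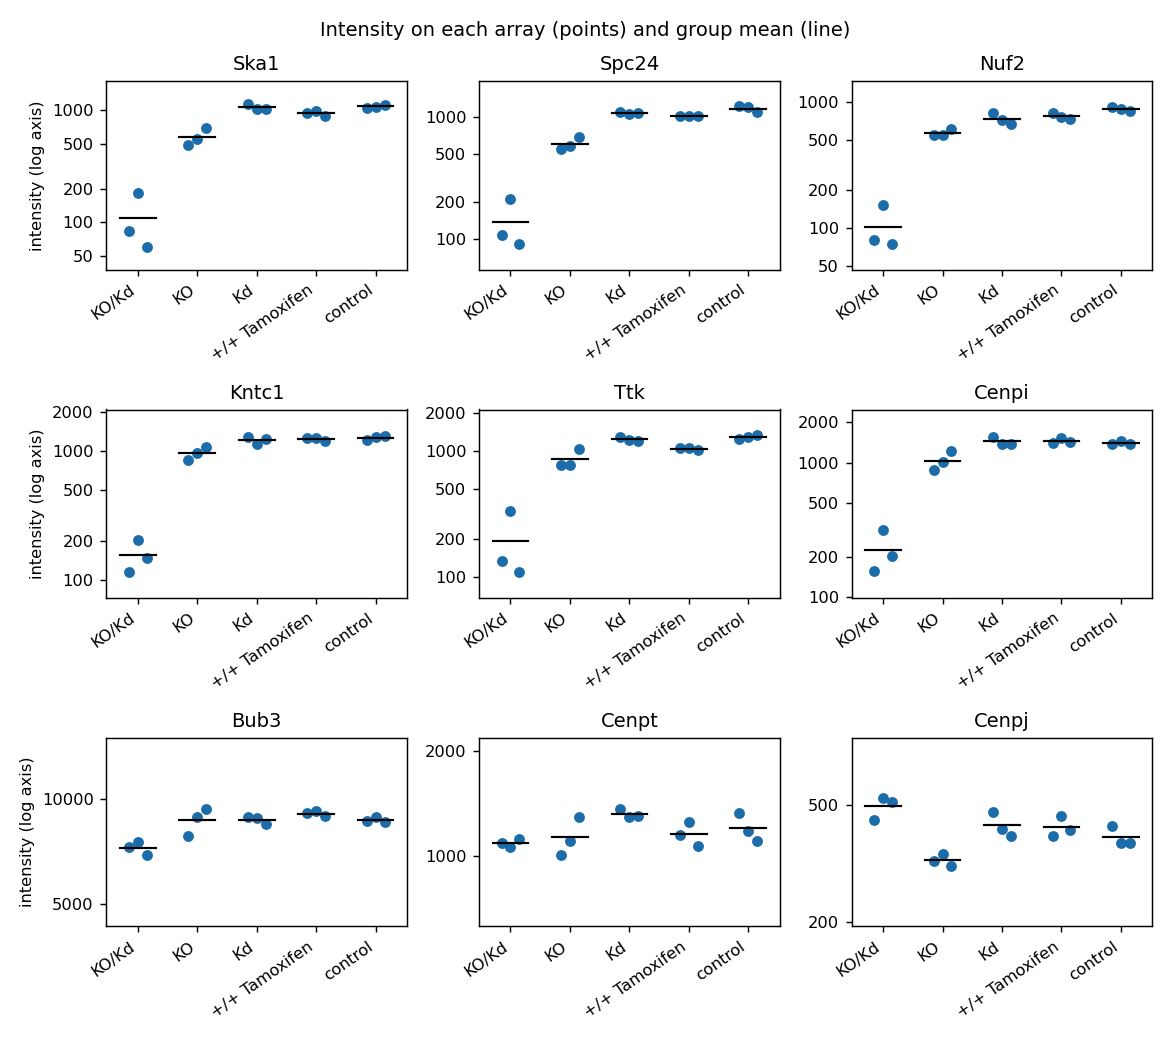
Intensity of selected members on each of the 15 arrays (points, log axis), with KO/Kd, KO, Kd and +/+ Tamoxifen cells left of control cells. Horizontal lines are group means. Ska1 and Kntc1 lie lowest on the KO/Kd arrays and next lowest on the KO arrays, while the KO/Kd arrays of Cenpj lie above those of control cells and the KO/Kd and control arrays of Cenpt overlap.

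The inner kinetochore divided into members that fell strongly and a few at the centromere that changed little. Cenpp, of the CENP-O group that recruits Plk1, read 98.7, 271 and 86.4 in KO/Kd cells, 510, 576 and 739 in KO cells, 904, 804 and 839 in Kd cells, 726, 757 and 690 in +/+ Tamoxifen cells, and 984, 881 and 938 in control cells. Cenpi, of the group that helps to load CENP-A, read 158, 317 and 204 in KO/Kd cells, 878, 1012 and 1222 in KO cells, 1560, 1382 and 1393 in Kd cells, 1394, 1537 and 1421 in +/+ Tamoxifen cells, and 1381, 1453 and 1390 in control cells. Log2 fold changes in KO/Kd cells were -2.66 ± 0.26 for Cenpp and -2.61 ± 0.17 for Cenpi, with the KO/Kd arrays below every other group. Cenpk, which forms a complex with CENP-H and CENP-I, read 282, 472 and 221 in KO/Kd cells, 1124, 1185 and 1354 in KO cells, 1747, 1558 and 1540 in Kd cells, 1426, 1265 and 1226 in +/+ Tamoxifen cells, and 1659, 1624 and 1509 in control cells; it fell by 2.31.

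Cenpn and Cenpl encode partners that recognise the CENP-A nucleosome. Cenpn read 206, 310 and 186 in KO/Kd cells, 925, 954 and 1083 in KO cells, 1417, 1380 and 1327 in Kd cells, 1012, 1045 and 909 in +/+ Tamoxifen cells, and 1459, 1358 and 1297 in control cells, a log2 fold change of -2.50 in KO/Kd cells. Cenpl read 123, 225 and 162 in KO/Kd cells, 418, 457 and 499 in KO cells, 422, 396 and 407 in Kd cells, 485, 377 and 408 in +/+ Tamoxifen cells, and 601, 583 and 518 in control cells, a log2 fold change of -1.68. For Cenpl every other group lay below the control arrays. Cenpa, which encodes CENP-A, averaged 1064 ± 367 in KO/Kd cells and 4022 ± 307 in control cells (SD, n = 3 each), and Oip5, a subunit of the Mis18 complex that prepares centromeres for new CENP-A, averaged 79.3 ± 11.8 in KO/Kd cells and 365 ± 26.9 in control cells. Their log2 fold changes were -1.95 and -2.0. Cenpm, Cenpw, Cenph, Cenpq and Cenpo fell by 2.36, 1.85, 1.71, 1.66 and 1.11 on the log2 scale.

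The inner members with the smallest changes were Cenpt, Cenpb and Cenpc1. Cenpt, a histone-fold protein that recruits Ndc80, averaged 1092 ± 27.9 in KO/Kd cells and 1207 ± 115 in control cells (SD, n = 3 each); its log2 fold change of -0.14 (95% interval -0.33 to 0.05) did not pass the test. Cenpb, which binds satellite DNA, and Cenpc1, which binds the CENP-A nucleosome and the Mis12 complex, kept 86.2% and 85.4% of the control level, with log2 fold changes of -0.21 (adjusted p = 0.0191) and -0.23 (adjusted p = 0.0378). Cenpw, the direct partner of Cenpt in one histone-fold complex, averaged 313 ± 117 in KO/Kd cells and 1129 ± 51.4 in control cells (SD, n = 3 each), so the members of this pair differed widely. Array scaling bears on such small values: after quantile normalization Cenpt had -0.36 (adjusted p = 0.000202), Cenpb -0.42 and Cenpc1 -0.44.

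Of the remaining 3 members, Sgo1 and Sgo2a encode shugoshins, which protect centromeric cohesin, and Cenpj encodes a centriole assembly protein rather than a kinetochore subunit. Sgo1 read 94, 235 and 87.1 in KO/Kd cells, 631, 701 and 749 in KO cells, 993, 944 and 965 in Kd cells, 791, 866 and 787 in +/+ Tamoxifen cells, and 1124, 1104 and 1091 in control cells, a log2 fold change of -2.98 in KO/Kd cells. Sgo2a read 281, 357 and 254 in KO/Kd cells, 801, 876 and 879 in KO cells, 1114, 949 and 1023 in Kd cells, 925, 924 and 833 in +/+ Tamoxifen cells, and 1038, 1031 and 992 in control cells, a log2 fold change of -1.74. Cenpj read 446, 528 and 512 in KO/Kd cells, 324, 342 and 310 in KO cells, 475, 415 and 393 in Kd cells, 393, 460 and 412 in +/+ Tamoxifen cells, and 426, 372 and 371 in control cells. Its KO/Kd arrays were all above and its KO arrays all below the control arrays, and it rose by 0.33 ± 0.09 in KO/Kd cells (adjusted p = 0.00383). That rise was lost after quantile normalization (0.08, adjusted p = 0.493) and after centring each array on its median (0.07, adjusted p = 0.52). Quantile normalization gave a median over all genes of -0.02 and centring one of -0.11, in place of 0.16; 33.4% and 41.2% of all genes then fell, and 39 members fell and 0 rose under each.

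KO cells showed a smaller change in the same direction for many members. They differ from control cells in Tamoxifen as well as in Hdac1, and these cannot be told apart in this comparison. The comparison with +/+ Tamoxifen cells is given further below. In KO cells 18 of 40 members fell and 0 rose relative to control cells, where 4.64% of all genes fell and 19.5% rose; the median over the members was -0.43 and that over all genes 0.08. By role, 9 of 13 outer kinetochore members fell, against 5 of 15 inner members, 3 of 9 checkpoint members and Sgo1. The medians of these 3 roles were closer, at -0.49, -0.43 and -0.36, and a difference between roles was not tested. Spc24 fell by 0.94 ± 0.19 (adjusted p = 0.0018), Ska1 by 0.89 ± 0.23, Nsl1 by 0.70 and Ndc80 by 0.64. Nuf2, Cenpe, Dsn1, Ska2 and Ska3 also fell, the last of them with overlapping arrays. Oip5 averaged 197 ± 22.2 in KO cells and 365 ± 26.9 in control cells (SD, n = 3 each) and fell by 0.84 ± 0.09 (adjusted p = 1.15e-05).

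The other inner members that fell in KO cells were Cenpm, Cenpq, Cenpn and Cenpo, by 0.87, 0.55, 0.47 and 0.35, and the checkpoint members were Bub1b, Mad2l1 and Kntc1, by 0.62, 0.42 and 0.40. Several others, among them Cenpp (-0.62, adjusted p = 0.0943), Ttk (-0.59, adjusted p = 0.0923) and Cenpf (-0.59, adjusted p = 0.0608), had non-overlapping arrays but missed the threshold; in all, 32 members had every KO array below every control array, as did 7.37% of all genes. Zw10, Cenpc1, Mis12 and Bub3 lay between -0.01 and 0.06. The count changed with single arrays and with scaling. It was 13, 12 and 13 without control replicates 1, 2 and 3, with 3.05%, 3.14% and 3.95% of all genes lower. Without KO replicates 1, 2 and 3 it was 12, 11 and 20, with 2.96%, 2.99% and 7.01% of all genes lower. With arrayWeights it was 6, with 1.52% of all genes lower, whereas quantile normalization gave 32 and centring 37, with 14.4% and 16.3% of all genes lower. Of 17 alternatives, 10 ended the call of Sgo1, 9 that of Ska3, 8 each those of Cenpo and Kntc1, 7 that of Cenpe and 6 that of Cenpm. No member fell by 1 or more on the log2 scale in KO cells.

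Knockdown of Hdac2 alone gave no call with the brightest probe sets. In Kd cells 0 of 40 members passed the limma test against control cells, where 3.02% of all genes fell and 7.51% rose, and 4 members, Cenpl, Mis12, Nsl1 and Ska3, had an unadjusted p under 0.05. The median was -0.07. Cenpl had the lowest value, -0.46 (95% interval -0.77 to -0.15, adjusted p = 0.0577), followed by Nsl1 at -0.39 and Mis12 at -0.33. The intervals for Kntc1 (-0.34 to 0.22) and Bub1 (-0.35 to 0.29) leave out a log2 fold change of -1. Other settings called up to 4 members, all lower. A second, dim probe set of Ttk, at 39.8 to 78.5 over all arrays, was lower in Kd than in control cells. Its log2 fold change was -0.51 (limma, adjusted p = 0.000704 over all probe sets), against -0.07 with the brightest one.

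Whether Tamoxifen with Hdac1 deletion acted differently in knockdown cells was tested by the interaction. The interaction is the log2 change with Tamoxifen and Hdac1 deletion in cells with the micro-RNA against Hdac2, minus that in scrambled cells. It was below 0 for 34 members and above 0 for 1 past the threshold, with a median of -1.31; 17.2% of all genes were called below 0 and 25.7% above it. The lowest was Kntc1, at -2.47 ± 0.19 (adjusted p = 4.04e-08): Kntc1 had -2.93 in KO/Kd cells, while its single changes were -0.40 in KO and -0.06 in Kd cells. Ska1 (-2.32), Cenpi (-2.19), Ttk (-2.15), Ndc80 and Sgo1 (-2.13 each) followed. Cenpb, Cenpt, Mis12, Dsn1 and Mad1l1 did not pass; Dsn1 had -0.37 (95% interval -0.70 to -0.04, adjusted p = 0.0693). Cenpj was the only member called above 0, at 0.45. The calls of Cenpc1 (-0.33, adjusted p = 0.0481) and Bub3 (-0.26, adjusted p = 0.0398) were near the threshold, and 14 of 23 alternatives ended each of them; 1 further alternative turned Bub3 round.

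**Figure D3:**
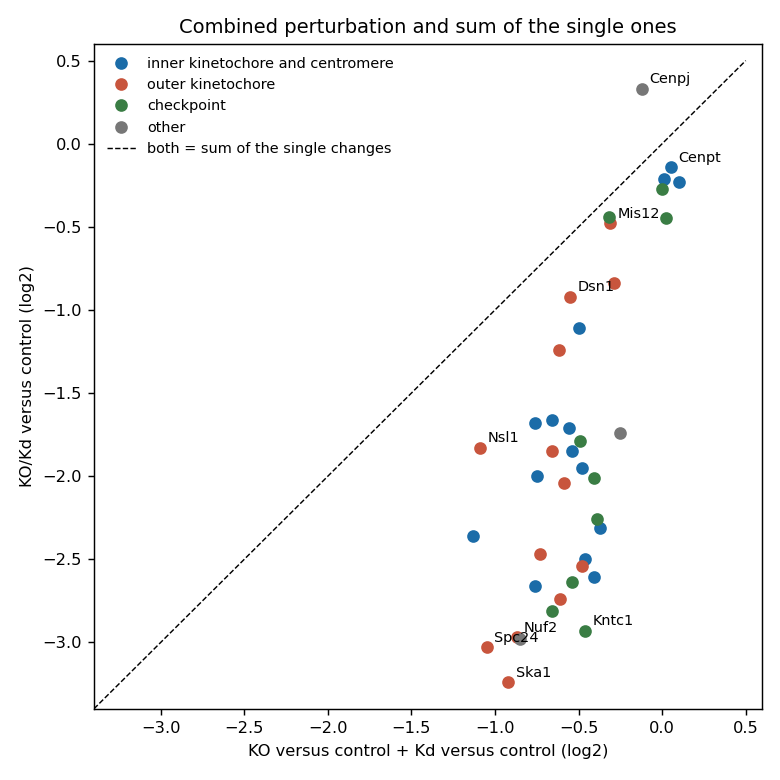
Log2 fold change in KO/Kd cells against control (y axis) and sum of the log2 fold changes in KO cells and in Kd cells against control (x axis) for the 40 members, coloured by role, with the line of equality. Most points lie below the line, Kntc1 and Ska1 far below it, and Mis12 and Cenpt lie near it; x and y share the control arrays, and the test of the distance from the line is the interaction.

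Each single perturbation was also set against the combination. Relative to Kd cells, 38 members fell and 0 rose in KO/Kd cells (20.4% of all genes fell and 42.8% rose), with a median of -1.84; Mis12 (-0.15, adjusted p = 0.249) and Cenpj (0.20, adjusted p = 0.058) gave no call. Relative to KO cells, 36 fell and 1, Cenpj, rose in KO/Kd cells (20.7% of all genes fell and 36.1% rose), with a median of -1.46; Cenpt, Cenpb and Mad1l1 gave no call. Cenpj had a log2 fold change of 0.58 there.

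HDAC1 +/+ cells with Tamoxifen lacked the floxed allele. They show the values of Tamoxifen-treated cells with intact Hdac1, but their viruses are not stated, so treatment, line and virus cannot be told apart. In these cells 5 members fell and 0 rose relative to control cells, where 6.93% of all genes fell and 21.5% rose, with a median of -0.18. Every +/+ Tamoxifen array lay below every control array for 22 members and above for 3. Such lower arrays were seen for 8 members in Kd cells and 32 in KO cells. The shares of all genes for the +/+ Tamoxifen and Kd cells are not given here. Cenpm, a small GTPase-like protein of the CENP-H group, read 60.3, 183 and 71.7 in KO/Kd cells, 276, 265 and 343 in KO cells, 444, 519 and 412 in Kd cells, 273, 327 and 209 in +/+ Tamoxifen cells, and 504, 571 and 574 in control cells. The KO and +/+ Tamoxifen arrays overlapped and both lay below the control arrays, with log2 fold changes of -0.87 and -1.0. Ska3 read 60.7, 58.1 and 68.9 in KO/Kd cells, 180, 182 and 254 in KO cells, 207, 225 and 208 in Kd cells, 182, 216 and 213 in +/+ Tamoxifen cells, and 226, 258 and 323 in control cells. It fell by 0.37 in KO cells and by 0.37 in +/+ Tamoxifen cells. Nsl1, Cenpn and Cenpl fell by 0.52, 0.47 and 0.41 in +/+ Tamoxifen cells. Fewer members were called when single arrays were left out. Without +/+ Tamoxifen replicates 1, 2 and 3 there were 4, 3 and 2, with 6.07%, 6.08% and 5.44% of all genes lower. Without control replicates 1, 2 and 3 there were 2, 3 and 3, with 5.75%, 5.58% and 6.19% of all genes lower.

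Against the +/+ Tamoxifen cells, 7 members fell in KO cells and 0 rose, while 11.3% of all genes fell and 12.8% rose, and the median was -0.21. The 7 were Spc24 (-0.74), Oip5 and Ska1 (-0.69 each), Ndc80 (-0.51), Dsn1 (-0.50), Cenpi (-0.49) and Cenpj (-0.36). Of the 18 members called lower in KO cells than in control cells, only Spc24, Oip5, Ska1, Ndc80 and Dsn1 passed here. The others did not pass and ran from -0.43 for Nuf2 and Cenpe to 0.13 for Cenpm, with Cenpn and Ska3 at 0.00. The number of members called lower was 5, 5 and 6 without +/+ Tamoxifen replicates 1, 2 and 3, with 8.06%, 8.03% and 10.4% of all genes lower. Without KO replicates 1, 2 and 3 it was 5, 5 and 12, with 7.35%, 8.68% and 17.2% of all genes lower. The calls of Ska1 and Cenpi were each ended by 9 of 17 alternatives. With both perturbations 38 members fell and 1, Cenpj, rose against +/+ Tamoxifen cells, with a median of -1.63 and 23.5% of all genes lower and 38.2% higher. This call of Cenpj (0.22) was ended by 10 of 17 alternatives, over which its value ran from 0.06 to 0.29.

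**Figure D4:**
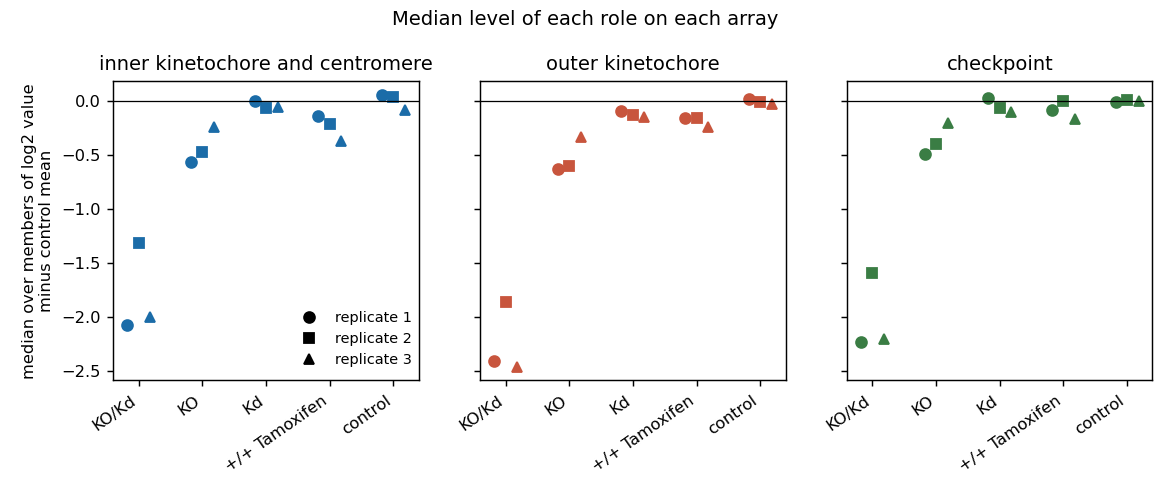
Median over the members of each role of the log2 difference from the control mean, for each of the 15 arrays, with control cells at the right. On the KO/Kd arrays the medians of the 3 main roles run from -2.46 to -1.31, with replicate 2 the highest in each role, and on the KO arrays from -0.63 to -0.20.

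Promoter sequences are given as a description. The stretches printed below were chosen because they hold letters searched, or because the member had a high log2 fold change in KO/Kd cells. The rules on letters did not use the size of the fall, but not every stretch that met a rule is printed. The contrast between the printed stretches was partly set by these choices. Of the members with a high log2 fold change, Cenpb (-0.21) also met the rule and is not printed. RefSeq promoter windows of 300 bases (250 before and 50 after the start, build GRCm38.p6) were found for 36 of the 40 members in 41 windows; those of Ska1, Spc24, Zwilch and Nsl1 were not used here. The windows were searched on both strands for TTTGAA, the core of the cell cycle homology region element through which the DREAM and B-MYB complexes contact DNA, and for its variant TTTAAA. Other letters searched were CCAAT, which NF-Y binds, and the E2F-type letters TTCGCGC with their variant TTGGCGC, as known from other cell cycle genes. TTTGAA occurred in 39.0% of the member windows and in 17.9% of 32851 windows of all genes (12.3% of those of tested genes), and CCAAT in 65.9% of the member windows and 37.4% both of all and of tested genes. TTTAAA occurred in 17.1% of the member windows and 13.2% of all (9.52% of those of tested genes). TTGGCGC occurred in 4.88% of the member windows and 2.45% of all (4.05% of those of tested genes), and TTCGCGC in 0 of 41 and 1.59% of all (2.81% of those of tested genes). Of the 26 members with a log2 fold change of -1 or lower in KO/Kd cells, 12 had TTTGAA and 19 had CCAAT, and of the other 10, 3 and 4 had them. The variant of TTTGAA was found in 5 of the 26 and in 2 of the other 10. Either form was found in 13 of the 26 and in 5 of the other 10, so with the variant included the shares were alike. These counts were not tested. A match is a description of the letters and no test of binding. Below are the 100 bases before the start, 5′ to 3′ on the strand of the gene, with capitals for CCAAT (on the other strand it reads ATTGG) and for TTTGAA (on the other strand it reads TTCAAA). First come members with TTTGAA close to the start: Kntc1 at chr5:123749626-123749725 (plus strand), Cenpn at chr8:116921640-116921739 (plus strand), Cenpw at chr10:30200541-30200640 (minus strand) and Ska3 at chr14:57826164-57826263 (minus strand).
Kntc1: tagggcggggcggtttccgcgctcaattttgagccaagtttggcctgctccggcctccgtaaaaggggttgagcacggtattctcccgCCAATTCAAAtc
Cenpn: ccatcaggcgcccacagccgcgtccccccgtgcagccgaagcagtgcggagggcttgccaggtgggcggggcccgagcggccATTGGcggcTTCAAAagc
Cenpw: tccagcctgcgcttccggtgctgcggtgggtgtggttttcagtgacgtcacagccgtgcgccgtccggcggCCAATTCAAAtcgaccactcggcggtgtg
Ska3: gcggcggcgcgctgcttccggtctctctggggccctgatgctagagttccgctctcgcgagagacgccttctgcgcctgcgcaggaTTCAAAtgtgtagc

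In Kntc1 and Cenpw the letters of both motifs overlap and read as 1 run in capitals. Kntc1 fell by 2.93 in KO/Kd cells, Cenpn by 2.50, and Cenpw and Ska3 by 1.85 each. The next stretches hold CCAAT more than once: Ttk at chr9:83834589-83834688 (plus strand), Bub1 at chr2:127831860-127831959 (minus strand), Cenpq at chr17:40934575-40934674 (minus strand) and Mis12 at chr11:71019511-71019610 (plus strand). Mis12 is among them although it fell by only 0.48, while Ttk, Bub1 and Cenpq fell by 2.81, 2.26 and 1.66. Oip5, Ska2 and Spc25 also hold CCAAT more than once in this stretch and are not printed. Their log2 fold changes in KO/Kd cells were -2.0, -1.24 and -0.84.
Ttk: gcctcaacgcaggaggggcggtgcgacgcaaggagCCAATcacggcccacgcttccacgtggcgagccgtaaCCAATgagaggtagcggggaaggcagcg
Bub1: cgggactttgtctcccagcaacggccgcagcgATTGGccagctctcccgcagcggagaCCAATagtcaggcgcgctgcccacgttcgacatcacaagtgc
Cenpq: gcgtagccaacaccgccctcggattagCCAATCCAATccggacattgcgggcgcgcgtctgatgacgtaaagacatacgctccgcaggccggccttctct
Mis12: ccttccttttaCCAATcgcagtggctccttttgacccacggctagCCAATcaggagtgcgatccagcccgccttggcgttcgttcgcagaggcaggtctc

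The members with the highest values in KO/Kd cells, Cenpj (0.33) and Cenpt (-0.14), had neither CCAAT nor TTTGAA in the same stretch, although the wider window of Cenpt holds TTTAAA: Cenpj at chr14:56571847-56571946 (minus strand) and Cenpt at chr8:105852009-105852108 (minus strand).
Cenpj: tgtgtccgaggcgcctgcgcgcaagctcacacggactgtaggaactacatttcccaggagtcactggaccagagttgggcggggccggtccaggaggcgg
Cenpt: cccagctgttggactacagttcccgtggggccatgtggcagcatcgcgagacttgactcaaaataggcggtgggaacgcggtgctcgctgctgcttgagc

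Exceptions stood on both sides. Bub3, at -0.27, had both TTTGAA and CCAAT within 100 bases of one of its annotated starts, whereas Nuf2, Cenpp and Mad2l1, at -2.97, -2.66 and -1.79, had none of the letters searched in their windows.

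Other genes of mitosis, from lists that were put together with earlier results of these data known, are given for comparison. In KO/Kd cells relative to control cells, 19.3% of all genes fell and 46.1% rose. All 4 chromosomal passenger complex genes, which correct faulty attachments, fell in KO/Kd cells relative to control cells: Birc5 had -2.84, Cdca8 had a log2 fold change of -2.72, Aurkb one of -2.56 and Incenp one of -1.86. Of 12 further kinetochore and centromere genes 7 fell and 4 rose, with Spdl1, which brings dynein to kinetochores, at -2.61 and the kinesin Kif2c at -2.23. Of 7 checkpoint partners 5 fell and 0 rose, among them Plk1, a mitotic kinase, which averaged 340 ± 119 in KO/Kd cells and 2503 ± 148 in control cells (SD, n = 3 each). Among 18 genes of the anaphase-promoting complex and of securin and separase, 10 fell and 4 rose. Separase (Espl1) fell by 2.70 and the inhibitor Fbxo5 by 2.53, whereas securin, Pttg1, averaged 9362 ± 168 in KO/Kd cells and 4884 ± 136 in control cells (SD, n = 3 each) and rose by 0.94 (adjusted p = 6.63e-09).

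Zwint, an outer kinetochore protein that binds Zw10, rose by 0.78 with its brightest probe set, but its probe sets disagreed. That probe set averaged 8042 in KO/Kd cells and 4678 in control cells, and a second averaged 3369 in KO/Kd cells and 4787 in control cells, a log2 fold change of -0.51. Both of the bright probe sets of Pttg1 rose, by 0.94 and 1.02.

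Proliferation markers moved with the members, and the share of cycling cells was not measured, so their part in the result was not tested. All 7 of these markers fell in KO/Kd cells relative to control cells, with Mki67 at 1374 ± 777 in KO/Kd cells and 7345 ± 474 in control cells (SD, n = 3 each), a log2 fold change of -2.55. In KO cells, where 4.64% of all genes fell, 4 of 7 fell, among them Ccna2 by 0.56. Of 11 regulators of cell cycle genes 6 fell and 3 rose in KO/Kd cells, where 19.3% of all genes fell and 46.1% rose. Rbl1 (p107), Foxm1 and Mybl2 (B-MYB), which act on cell cycle promoters, fell by 3.04, 2.89 and 2.52. Cdkn1a, the inhibitor p21, averaged 12006 ± 465 in KO/Kd cells, 8308 ± 766 in KO cells, 2646 ± 55.5 in Kd cells, 3298 ± 353 in +/+ Tamoxifen cells and 2811 ± 98.5 in control cells (SD, n = 3 each), with log2 fold changes of 2.09 in KO/Kd cells and 1.55 in KO cells. Rbl2 (p130), a subunit of DREAM in resting cells, rose by 1.92 in KO/Kd cells and by 0.30 in KO cells.

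Markers of other cell types also differed, and their part in the result was not tested. Over 5 pericyte and smooth muscle markers, the summed intensity was 6800 to 7429 in KO/Kd cells and 2247 to 2641 in control cells, with 4 of 5 higher and Cspg4 lower. Over 4 skeletal muscle markers it was 252 to 392 in KO/Kd cells and 1864 to 2286 in control cells, a sum that Acta1, which fell by 2.92, nearly made up by itself. Of the 3 tested, the other two rose: Myog averaged 35.2 in KO/Kd cells and 18.7 in control cells and rose by 0.55, and Des averaged 29 in KO/Kd cells and 20.5 in control cells and rose by 0.30. Endothelial markers summed to 121 to 161 in KO/Kd cells and 67.8 to 72.2 in control cells, with Kdr as the 1 of 5 that was bright enough to test; Pecam1 and Cdh5 did not pass the filter. Macrophage markers summed to 372 to 550 in KO/Kd cells and 378 to 406 in control cells, and epithelial markers to 142 to 155 in KO/Kd cells and 148 to 163 in control cells.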

How the data were processed

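The authors deposited 1 table of linear probe set intensities for 45037 probe sets on 15 Affymetrix mouse arrays, labelled with biotin by 1-cycle in vitro transcription, per the labels' protocols. How these intensities were summarised, background-corrected and scaled is stated in none of the sources used here. An array annotation table gave 1 symbol to 34945 probe sets, several to 932 and none to 9160; only those with 1 symbol were used. No pair of arrays held identical values (0 pairs).

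Intensities were transformed to log2(intensity + 16), which understates changes of dim genes. Probe sets above the 40th percentile of their array on at least 3 arrays were kept, and the brightest one stood for its gene. The 15 arrays were fitted together, with a coefficient for each group, in limma 3.58.1 under R 4.3.3 (lmFit, contrasts.fit and eBayes) for 9 comparisons, with Benjamini-Hochberg adjustment over 13373 genes per comparison and a threshold of 0.05. Precision is limited by the number of arrays; standard errors had a median of 0.0868 between 2 groups and of 0.123 for the interaction. Data were also simulated for KO against control (13373 genes, 5 runs). Recovery of seeded log2 changes was 16% for 0.25, 77.6% for 0.5, 99.6% for 1 and 100% for 2. Unchanged genes made up 5.42% of the calls. The simulated noise was independent between genes and held no shift of whole arrays, so these rates need not hold for the KO calls on the real arrays.

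Members and lists were chosen with earlier results of these data known. Values on every array are given, per role, for up to 5 members with the largest change past the threshold in KO or KO/Kd cells, for members that moved against their role, and for up to 5 members past the threshold in the interaction and in +/+ Tamoxifen cells; other members are given by group means or fold changes. Promoter sequences are RefSeq's. Alternatives were another eBayes, only the compared groups, the replicate number as a block, other filters, other probe set rules, 2 other scalings, arrayWeights, a pseudocount of 1 and each array left out in turn.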

Additional observations from a re-analysis of the deposited data

Results flagged for a closer look

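The change with Tamoxifen and Hdac1 deletion differed between cells with the micro-RNA against Hdac2 and cells with the scrambled micro-RNA for 35 members. These were called by the interaction test of limma, with Benjamini-Hochberg adjustment over all genes tested. Of all genes, 17.2% were called below 0 and 25.7% above it. The values are log2 differences, deletion in knockdown cells minus deletion in scrambled cells. In the outer kinetochore they were -2.32 for Ska1, -2.13 for Ndc80, -2.11 for Nuf2, -2.07 for Cenpe, -1.98 for Spc24, -1.73 for Knl1, -1.44 for Cenpf, -1.18 for Ska3, -0.74 for Nsl1, -0.61 for Ska2 and -0.55 for Spc25. In the inner kinetochore they were -2.19 for Cenpi, -2.04 for Cenpn, -1.94 for Cenpk, -1.90 for Cenpp, -1.47 for Cenpa, -1.32 for Cenpw, -1.25 for Oip5, -1.23 for Cenpm, -1.15 for Cenph, -1.0 for Cenpq, -0.92 for Cenpl, -0.61 for Cenpo and -0.33 for Cenpc1. Among checkpoint genes they were -2.47 for Kntc1, -2.15 for Ttk, -2.10 for Bub1b, -1.87 for Bub1, -1.60 for Zwilch, -1.30 for Mad2l1, -0.47 for Zw10 and -0.26 for Bub3. Sgo1 had -2.13 and Sgo2a -1.49, and Cenpj was the 1 called member with a positive value, 0.45. Most alternatives ended the calls of Cenpc1 (14 of 23) and of Bub3 (14 of 23, with 1 more that turned it round).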

How the results depend on the processing

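Over all alternatives, 132 of 159 counts of changed members stayed within 1.5 times the reported count, and 3755 of 3916 calls of single members kept their direction and their side of the threshold, while 156 missed the threshold and 5 turned round. The 5 were all Bub3 without _x_at and _s_at probe sets, at 0.14 in KO/Kd against control cells, 0.16 against Kd, 0.20 against KO, 0.33 against +/+ Tamoxifen cells (adjusted p = 0.00326) and 0.22 in the interaction. For KO/Kd cells no alternative moved a count by over 1.5 times.

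The count of members lower in KO cells than in control cells, 18, was 29 with only the compared groups (4.44% of all genes lower), 32 after quantile normalization (14.4%), 37 with centring (16.3%) and 6 with arrayWeights (1.52%), which did not converge and gave KO replicate 2 a weight of 1.1e-05. The count for Kd cells, 0, was 2 with a trended and robust eBayes (3.51% of all genes lower), 3 with only the compared groups (4.59%), 1 with the mean of probe sets (3.03%), 3 after quantile normalization (7.28%), 4 with centring (8.03%) and 4 with arrayWeights (6.64%). For +/+ Tamoxifen against control cells, 5 became 15 with only the compared groups (14 lower and 1 higher, 8.57%), 3 without a filter (4.91%), 11 after quantile normalization (15%), 12 with centring (14.3%), 9 with arrayWeights (7 lower and 2 higher, 9.29%) and 3 with a pseudocount of 1 (6.76%). For KO against +/+ Tamoxifen cells, 7 became 15 with only the compared groups (9.92%), 11 after quantile normalization (16.3%), 15 with centring (18.8%) and 3 with arrayWeights (5.14%). Percentages are the shares of all genes called lower under each setting. The cause of these shifts was not tested.

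Leaving out single arrays gave 11 to 20 members in KO cells against control cells (11 without KO replicate 2, 20 without KO replicate 3), 0 to 0 in Kd cells, 37 to 39 in KO/Kd cells, 37 to 38 against Kd, 36 to 38 against KO, 37 to 39 against +/+ Tamoxifen cells and 33 to 36 in the interaction. For +/+ Tamoxifen against control cells it gave 2 to 4. There were 3 without +/+ Tamoxifen replicate 2, 2 without replicate 3, and 2, 3 and 3 without control replicates 1, 2 and 3. For KO against +/+ Tamoxifen cells it gave 5 to 12, with 12 and 17.2% of all genes lower without KO replicate 3. For KO against control cells 2.99% and 7.01% of all genes were lower without KO replicates 2 and 3.

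With the replicate number as a block, the counts were 18 in KO, 0 in Kd and 39 in KO/Kd cells against control, 38 against Kd, 37 against KO, 34 in the interaction, 4 in +/+ Tamoxifen cells, and 7 in KO and 39 in KO/Kd cells against +/+ Tamoxifen cells. Deviations of same-numbered arrays correlated at -0.16 to 0.136, those of other pairs at -0.117 to 0.188. Same-numbered arrays were thus no more alike than others by this measure. Whether they shared a culture or a day cannot be told from it, because the scaling of whole arrays also enters the deviations.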
